A study of Homo sapiens with 27 samples.

Results

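The 9 genes described here encode the machinery that shows cell-derived peptides on HLA class I molecules: HLA-B, HLA-C, HLA-E, B2M, TAP1, TAP2, TAPBP, PSMB8 and PSMB9. They were chosen by name, as genes of this pathway, and all 9 were found among the 14008 genes of the count table. Messenger RNA 3' ends were counted in 27 libraries of teloHAEC, human aortic endothelial cells immortalised as a line, which had been electroporated with Cas9 ribonucleoprotein 2 days earlier. In set A, 4 libraries came from cells given guide RNAs that flank an enhancer of SMAD3 (SMAD3 deletion), 4 from cells given a guide against HPRT (the positive control) and 4 from cells given a non-targeting guide (the negative control). In set B, 4 libraries came from cells given guides that flank an enhancer of C2orf43, now named LDAH (LDAH deletion), 4 from HPRT-targeted cells and 7 from negative control cells. The cells of all 27 libraries, controls included, had therefore received Cas9 protein, a guide and an electric pulse. Titles of the control libraries name series A or B, here called set A and set B. Titles of the deletion libraries name no series, so the titles alone do not place each deletion in its set. Every comparison of a deletion with control cells below depends on that placement. The cells are 1 line, electroporated as mixed populations of 150000 cells per replicate, and the libraries do not show which cells carried an edit. The labels do not say whether replicates came from separate cultures, so p-values measure only the spread between these samples.

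Class I molecules are made of a polymorphic heavy chain, such as HLA-B or HLA-C, and the light chain beta-2 microglobulin, encoded by B2M. The proteasome cuts proteins of the cell into peptides, TAP1 and TAP2 pump them into the endoplasmic reticulum, and tapasin, encoded by TAPBP, holds the empty class I molecule to the pump while it is loaded. PSMB8 and PSMB9 encode subunits of the immunoproteasome that replace catalytic subunits of the constitutive proteasome. Endothelial cells carry class I molecules at rest, and interferons and tumour necrosis factor raise most of these genes in them through interferon-stimulated response elements, NF-kB sites and the SXY module that NLRC5 and the RFX complex occupy.

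The promoter sequences below show these elements as letters, since several of the genes share them. They are parts of RefSeq windows on GRCh38.p14, each reaching from 250 bases before to 50 bases after an annotated start, found for 8 of the 9 genes. The first 5 sequences are printed for the interferon-stimulated response element, searched by its core GAAANNGAA on both strands, and capitals mark it and the NF-kB motif GGACTTTCC, overlapping matches joined.
B2M (chr15:44711348-44711425, plus strand): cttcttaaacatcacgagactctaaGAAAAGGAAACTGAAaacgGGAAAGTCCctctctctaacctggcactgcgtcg
TAP1 (chr6:32853742-32853862, minus strand): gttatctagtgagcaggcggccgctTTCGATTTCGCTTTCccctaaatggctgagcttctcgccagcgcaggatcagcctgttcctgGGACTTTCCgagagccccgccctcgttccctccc
TAP2 (chr6:32838764-32838822, minus strand): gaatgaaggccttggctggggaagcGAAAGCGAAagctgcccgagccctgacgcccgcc
TAPBP (chr6:33314059-33314123, minus strand): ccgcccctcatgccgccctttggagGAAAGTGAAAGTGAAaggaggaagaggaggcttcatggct
PSMB8 (chr6:32844017-32844075, minus strand): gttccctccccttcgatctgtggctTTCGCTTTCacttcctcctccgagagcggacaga

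TAP1 and PSMB8 had 2 windows each. The response element was present in 5 of the 8 genes with a window and in 5 of their 10 windows, while 8.11% of all 35116 windows in the RefSeq table held it. The search finds the exact core only, so a window without a match may hold a variant of the element. In B2M, TAP1 and TAPBP it occurred as a pair of overlapping matches. The NF-kB motif was present in 2 genes, B2M and TAP1, and in 2 of the 10 windows, against 0.37% of all windows. The next pair of sequences shows the region before the start of the heavy-chain genes, with capitals marking the CCAAT box (CCAAT, or ATTGG on the other strand) and TGACG, the core of the X2 box of the SXY module (CGTCA on the other strand).
HLA-B (chr6:31357229-31357329, minus strand): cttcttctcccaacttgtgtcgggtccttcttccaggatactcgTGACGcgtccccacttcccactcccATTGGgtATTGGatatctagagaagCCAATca
HLA-C (chr6:31272142-31272242, minus strand): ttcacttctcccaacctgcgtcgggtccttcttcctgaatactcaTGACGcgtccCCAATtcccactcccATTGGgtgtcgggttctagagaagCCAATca

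In HLA-B and HLA-C, TGACG lay 106 and 105 bases before the annotated start, and the last CCAAT lay 56 bases before it in both. TGACG was present in 6 of the 8 genes, in 6 of their 10 windows, and in 24.6% of all windows. CCAAT was present in 5 of the 8 genes, in 5 of the 10 windows, and in 34.6% of all windows. The interferon-gamma activated site TTCNNNGAA was present in 2 genes, TAP1 and PSMB8, and in 2 of the 10 windows, against 7.66% of all windows. Both of these matches lie outside the stretches printed above. Such matches describe letters and do not show that a factor bound there. TAP1 and PSMB9 are read in opposite directions from starts that lie 488 bases apart.

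On GRCh38, with GENCODE 29 for positions, 8 of the genes lie in the major histocompatibility complex on chromosome 6: HLA-E (30489467 to 30494205), HLA-C (31268749 to 31272130), HLA-B (31269491 to 31357188), TAP2 (32821833 to 32838780), PSMB8 (32840717 to 32844703), PSMB9 (32844136 to 32859585), TAP1 (32845209 to 32853978) and TAPBP (33299694 to 33314387). B2M lies on chromosome 15 (44711487 to 44718877). The annotated HLA-B and HLA-C genes share 2640 bases on the same strand. The annotated PSMB9 gene spans TAP1 on the opposite strand, with 8770 shared bases, and overlaps PSMB8 by 568 bases. The strand setting of the counting is not given in the sources used here, so counts of these overlapping genes are uncertain to that extent. Of the 86-base stretches in the last 500 bases of coding transcripts, 1.49% of those of HLA-C were shared with another HLA gene and 0% of those of the other 8 genes.

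Set A libraries held 4.76 to 7.75 M counts each, and set B libraries held 3.43 to 6.41 M. Across all genes, 7 libraries stood apart from the others of their set. Those of set A were SMAD3 deletion replicate 4 and replicate 3 of the HPRT-targeted group. Those of set B were replicate 4 of the LDAH deletion, replicates 2 and 4 of the HPRT-targeted group and replicates 6 and 7 of the negative control. The share of counts from ribosomal protein genes was 14.2% to 16.4% in these 7, against 8.76% to 13.7% in the remaining 20. These 7 libraries lie in 5 of the 6 groups, and no negative control library of set A is among them. SMAD3 averaged 98.5 ± 15.9 CPM (SD, n = 4) in the SMAD3 deletion and 134 ± 9.55 CPM in negative control cells of its set (n = 4). LDAH averaged 7.08 ± 3.36 CPM (n = 4) in its deletion and 12.04 ± 3.43 CPM in the 7 negative control libraries. HPRT1 averaged 34.1 ± 6.83 CPM in HPRT-targeted and 42.8 ± 8.36 CPM in negative control cells of set A, and 41.5 ± 12.5 CPM and 48.9 ± 20.8 CPM in those of set B. All 12 endothelial markers were counted, PECAM1 at a mean of 354 CPM and CDH5 at 210.3 CPM, while VWF averaged 2.81 CPM and was at 0 in 3 libraries. Of 13 class II and leukocyte markers, only 4 were present in the count table, at means of 0.75 CPM (HLA-DMA) to 12.5 CPM (HLA-DPB1).

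All 9 genes had counts in all 27 libraries, from 65 reads (PSMB9) to 9872 reads (B2M) in a library. Because each transcript gives reads at its 3' end only, CPM (reads of a gene scaled to the library's total) were compared between genes without division by length. B2M was the most abundant, at 1140 ± 268 CPM (SD, n = 27), above 99.0% of the 12055 genes tested across the libraries. HLA-E followed at 314 ± 40.0 CPM, then HLA-B at 166 ± 51.8 CPM and HLA-C at 159 ± 43.9 CPM, and these last 2 did not differ beyond their spread. Whether reads of this line's HLA-B and HLA-C alleles were lost against the reference genome was not tested, which limits their place in this order. TAP2 averaged 80.3 ± 17.6 CPM, TAPBP 61.4 ± 24.8 CPM, PSMB8 52.0 ± 19.0 CPM and TAP1 45.1 ± 17.8 CPM, so that each lay within the spread of its neighbour in this order. PSMB9 was lowest, at 21.1 ± 9.92 CPM. The highest library was at 1.66 times the lowest for HLA-E, the smallest such ratio of the 9, and at 6.30 times for TAPBP. For HLA-B it was at 10.02 times, and at 2.82 times without HPRT-targeted replicate 2 of set B, so that the larger ratio rested on 1 library.

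**Figure D1:**
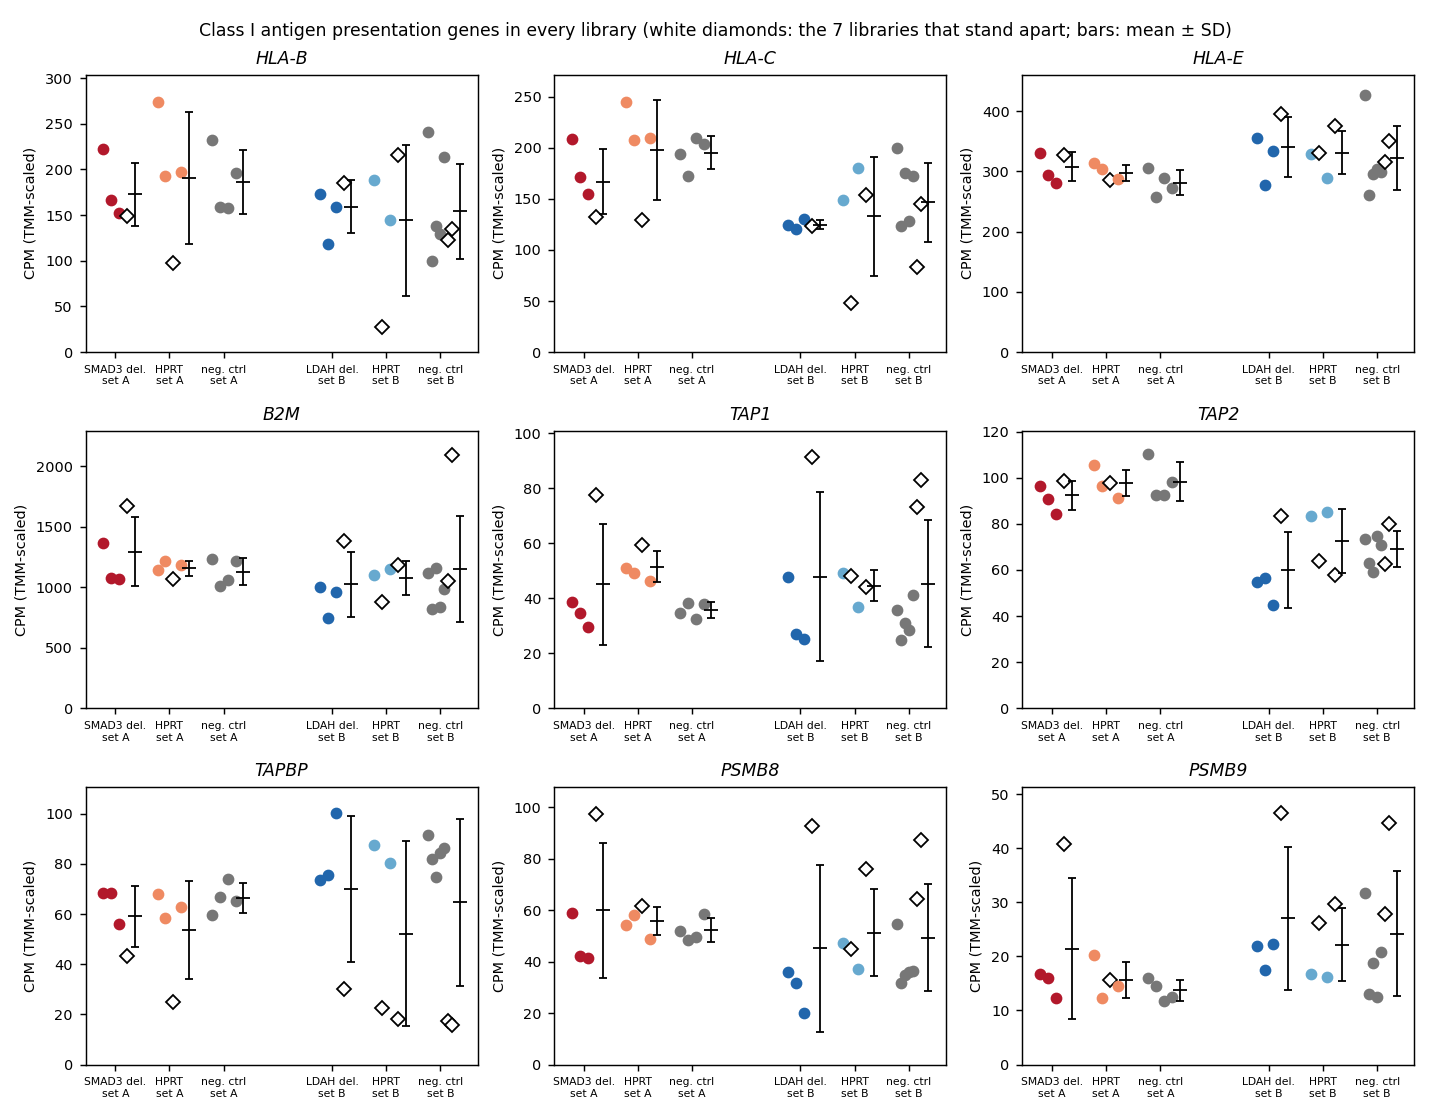
Level of each of the 9 genes (CPM scaled by TMM, linear axis from 0) in every library, by group, with the mean and SD of each group beside its points. White diamonds mark the 7 libraries that stand apart, which hold the highest TAP1, PSMB8 and PSMB9 values and the lowest TAPBP values.

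For none of the 9 genes did a difference between edited and control cells pass the threshold. By the quasi-likelihood test of edgeR, with p-values adjusted after Benjamini and Hochberg at 0.05, none of the 9 was called for either deletion or for HPRT targeting, and no gene of the table was called either, so the background share was 0% in each of these comparisons. DESeq2 and limma voom with sample quality weights called none of the 9 in any of them, while over all genes DESeq2 called 3 and voom 2 for the SMAD3 deletion, and DESeq2 called 14 for the LDAH deletion. At an unadjusted p under 0.05, 778 genes (6.78%) differed for the SMAD3 deletion against the negative control and 257 (2.24%) for HPRT targeting in set A. The same count was 543 (4.61%) for the LDAH deletion and 206 (1.75%) for HPRT targeting in set B. Of the 9 genes, 1 was among them, TAP1 in HPRT-targeted cells of set A. The common dispersion, a measure of the spread between libraries, was 0.195 for set B and 0.0434 for set A.

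The immunoproteasome subunits come first in the pathway. PSMB9 stood at 16.7, 15.9, 12.3 and 40.8 CPM in the SMAD3 deletion libraries and at 20.2, 12.3, 15.6 and 14.5 CPM in HPRT-targeted libraries of set A. Negative control libraries of set A were at 16.0, 14.6, 11.8 and 12.5 CPM. A single deletion library, replicate 4, lay above the others, and the groups overlapped. The log2 fold change for the SMAD3 deletion was 0.64 ± 0.32 (SE, adjusted p = 0.734), and it was 0.13 ± 0.19 without the libraries that stand apart. In set B, PSMB9 stood at 21.8, 17.5, 22.3 and 46.5 CPM in the LDAH deletion libraries and at 16.8, 26.1, 16.1 and 29.7 CPM in HPRT-targeted libraries. The 7 negative control libraries of set B ranged from 12.6 to 44.7 CPM with a median of 20.9 CPM. Again the highest deletion library was one that stands apart, and all 3 groups overlapped. The log2 fold changes were 0.15 ± 0.36 for the LDAH deletion and -0.12 ± 0.36 for HPRT targeting in set B.

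PSMB8, which replaces the chymotrypsin-like subunit PSMB5, was also highest in replicate 4 of the SMAD3 deletion among the libraries of set A. It stood at 58.8, 42.0, 41.5 and 97.5 CPM in the SMAD3 deletion and at 54.4, 58.3, 61.6 and 48.7 CPM in HPRT-targeted cells of set A. Negative control cells of set A were at 52.1, 48.2, 49.7 and 58.7 CPM, within the range of the deletion. The log2 fold change for the SMAD3 deletion was 0.21 ± 0.23 with all libraries and -0.13 ± 0.13 without those that stand apart. In set B it averaged 45.1 ± 32.5 CPM in the LDAH deletion (n = 4), 51.3 ± 16.9 CPM in HPRT-targeted (n = 4) and 49.4 ± 20.7 CPM in negative control libraries (n = 7). PSMB8 made up 14.0 ± 2.87% of the summed PSMB8 and PSMB5 counts in the SMAD3 deletion, 11.6 ± 1.18% in HPRT-targeted and 12.97 ± 1.39% in negative control cells of set A. In set B this share was 10.04 ± 5.08% in the LDAH deletion, 12.7 ± 2.39% in HPRT-targeted and 12.7 ± 2.64% in negative control cells. PSMB9 made up 7.09 ± 2.01%, 5.82 ± 1.46% and 5.60 ± 0.69% of the sum with PSMB6 in the SMAD3 deletion, HPRT-targeted and negative control cells of set A. The constitutive subunits thus gave most of the counts of both pairs in every group, and the group ranges overlapped for both shares.

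The transporter is a dimer of the TAP1 and TAP2 proteins. TAP1 stood at 51.1, 49.2, 59.5 and 46.2 CPM in HPRT-targeted libraries of set A, against 34.5, 38.3, 32.5 and 37.95 CPM in the negative control. All 4 HPRT-targeted libraries lay above all 4 negative control libraries, and the ranges of these groups did not overlap, in either direction, for 4.34% of all genes. The log2 fold change was 0.52 ± 0.24 with a 95% interval from 0.003 to 1.04, an unadjusted p of 0.0488 and an adjusted p of 0.988 in the edgeR test. SMAD3 deletion libraries were at 38.7, 34.6, 29.4 and 77.6 CPM, with 3 of the 4 in or near the negative control range, and the log2 fold change was 0.34 ± 0.24 (adjusted p = 0.791).

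In set B, TAP1 stood at 49.1, 48.3, 36.8 and 44.1 CPM in HPRT-targeted libraries, while negative control libraries ranged from 24.9 to 83.1 CPM with a median of 35.8 CPM. The groups overlapped, since the 2 negative control libraries that stand apart, at 73.1 and 83.1 CPM, lay above every HPRT-targeted one, and the log2 fold change was -0.03 ± 0.38. LDAH deletion libraries were at 47.7, 27.2, 25.3 and 91.5 CPM, a log2 fold change of 0.07 ± 0.38. Without the libraries that stand apart, the HPRT log2 fold change was 0.45 ± 0.12 in set A (unadjusted p = 0.0013, adjusted p = 0.748), 0.40 ± 0.25 in set B and 0.42 ± 0.12 over both sets (adjusted p = 0.347). In set A 5.94% of all genes had an unadjusted p under 0.05 in that fit. In set B only 2 HPRT-targeted libraries were left without those that stand apart, at 36.8 and 49.1 CPM of TAP1. With all libraries, the value over both sets was 0.21 ± 0.21, in a comparison where 378 genes (3.19%) had an unadjusted p under 0.05 and TAP1 did not. HPRT effects in set B minus those in set A differed by -0.55 ± 0.50 with all libraries (adjusted p = 1), and 1.32% of all genes had an unadjusted p under 0.05 in that difference. TAP1 therefore did not pass the threshold in any of these fits.

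TAP2 differed between the 2 sets. The 3 groups of set A lay close together, at 92.5 ± 6.29 CPM in the SMAD3 deletion, 97.7 ± 5.79 CPM in HPRT-targeted and 98.3 ± 8.35 CPM in negative control cells (SD, n = 4 each). LDAH deletion libraries were at 54.8, 56.3, 45.0 and 83.5 CPM, HPRT-targeted libraries of set B at 83.4, 63.8, 85.0 and 57.6 CPM, and the negative control of set B ranged from 58.9 to 80.1 CPM with a median of 70.6 CPM. The LDAH deletion held the 3 lowest TAP2 values of all libraries, and its remaining library lay above the negative control. The log2 fold change for the LDAH deletion was -0.21 ± 0.19 with all libraries and -0.40 ± 0.15 without those that stand apart (unadjusted p = 0.0141, adjusted p = 0.217). In that last fit 12.8% of all genes had an unadjusted p under 0.05.

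Between negative control cells of set B and those of set A, TAP2 fell by 0.51 ± 0.14 on the log2 scale (95% interval -0.80 to -0.22, edgeR adjusted p = 0.0191), and the 7 libraries of set B lay below all 4 of set A. It was the only one of the 9 genes called in that comparison, in which 9.60% of all genes were called, 21.9% had an unadjusted p under 0.05 and 11.9% had ranges that did not overlap. The call was lost without negative control replicate 1 or 4 of set A, or replicate 2 or 3 of set B, at adjusted p-values of 0.0521 to 0.0893. Without the libraries that stand apart, its adjusted p was 0.000346. PSMB9 was at 0.82 ± 0.35 in the same comparison (adjusted p = 0.161) and HLA-C at -0.41 ± 0.24 (adjusted p = 0.345). TAPBP was at -0.04 ± 0.44 with all libraries and at 0.34 ± 0.11 without those that stand apart, where it was called too (adjusted p = 0.0236). In that fit without them, 28.2% of all genes were called, against which TAP2 and TAPBP are 2 of 9. The sets differ in experiment, and what else differed between them is not given, so the set cannot be told apart from its handling.

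Tapasin had the widest spread of the 9 genes on the log2 scale, with an SD of 0.80 over the 27 libraries. TAPBP stood at 68.5, 68.6, 56.1 and 43.3 CPM in the SMAD3 deletion and at 68.2, 58.6, 24.8 and 62.97 CPM in HPRT-targeted cells of set A, against 59.7, 66.8, 73.95 and 65.4 CPM in the negative control. In set B it stood at 73.5, 75.7, 100.2 and 30.2 CPM in the LDAH deletion and at 87.7, 22.4, 80.5 and 18.3 CPM in HPRT-targeted cells. The negative control of set B ranged from 15.9 to 91.6 CPM with a median of 82.0 CPM. In both sets every library that stands apart lay below every other library. The log2 fold changes were -0.16 ± 0.24 for the SMAD3 deletion, -0.32 ± 0.25 for HPRT targeting in set A, 0.11 ± 0.52 for the LDAH deletion and -0.31 ± 0.53 for HPRT targeting in set B. Without the libraries that stand apart, the SMAD3 deletion was at -0.04 ± 0.11 and the LDAH deletion at -0.03 ± 0.14, with intervals that were narrower.

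HLA-B and HLA-C, the classical heavy chains of this group, had overlapping levels in all groups. HLA-B was at 223, 166, 153 and 149 CPM in the SMAD3 deletion and at 274, 193, 97.4 and 197 CPM in HPRT-targeted cells of set A, against 232, 159, 158 and 197 CPM in the negative control. It was at 174, 118, 159 and 185 CPM in the LDAH deletion and at 189, 27.4, 145 and 216 CPM in HPRT-targeted cells of set B, against a range of 100.1 to 241 CPM with a median of 135 CPM in the negative control. The groups overlapped in each comparison, and the log2 fold changes lay between -0.10 and 0.04.

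HLA-C averaged 167 ± 32.2 CPM in the SMAD3 deletion, 197 ± 48.9 CPM in HPRT-targeted and 195 ± 16.2 CPM in negative control cells of set A (SD, n = 4 each). In the LDAH deletion its 4 libraries lay between 120.4 and 131 CPM, against 48.3 to 180.1 CPM in HPRT-targeted and 83.7 to 199 CPM in negative control libraries of set B. The log2 fold change for the LDAH deletion was -0.24 ± 0.28 with all libraries and -0.36 ± 0.15 without those that stand apart (unadjusted p = 0.0223, adjusted p = 0.266), where 12.8% of all genes had an unadjusted p under 0.05.

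In HPRT-targeted replicate 2 of set B, HLA-B and HLA-C stood at 27.4 and 48.3 CPM, the lowest values of all libraries, against 97.4 to 274 CPM and 83.7 to 244.5 CPM in the other 26. The median of the other libraries was 5.95 times its HLA-B level and 3.38 times its HLA-C level. HLA-E was not low in that library, at 330.5 CPM against 257 to 426 CPM. B2M was not the lowest, at 876 CPM against 744 to 2093 CPM, but it ranked 4 from the lowest of 27. It also lay below the other HPRT-targeted libraries of set B, which had B2M at 1102 to 1184 CPM. MICA and MICB, class I-like ligands of the NK receptor NKG2D whose genes lie near HLA-B, were at 56.6 and 47.2 CPM, inside the ranges of 39.4 to 74.7 CPM and 28.97 to 58.4 CPM of the other libraries. The library is one of the 7 that stand apart, but the other 6 had HLA-B between 97.4 and 216 CPM. MICA and MICB were named after their values were seen.

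HLA-E, whose product presents leader peptides of other class I molecules to NK cells, averaged 308 ± 24.6 CPM in the SMAD3 deletion, 298 ± 13.1 CPM in HPRT-targeted and 281 ± 20.6 CPM in negative control cells of set A (SD, n = 4 each). In set B it averaged 340.4 ± 49.1 CPM in the LDAH deletion, 331 ± 35.7 CPM in HPRT-targeted and 322 ± 53.3 CPM in negative control cells. It had the narrowest intervals of the 9, from -0.07 to 0.36 for the SMAD3 deletion and from -0.25 to 0.41 for the LDAH deletion, on the log2 scale. B2M averaged 1294 ± 286 CPM in the SMAD3 deletion against 1129 ± 112 CPM in its negative control, and 1024 ± 266 CPM in the LDAH deletion against 1151 ± 435 CPM (n = 7). Its log2 fold changes were 0.21 ± 0.14 and -0.17 ± 0.24.

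**Figure D2:**
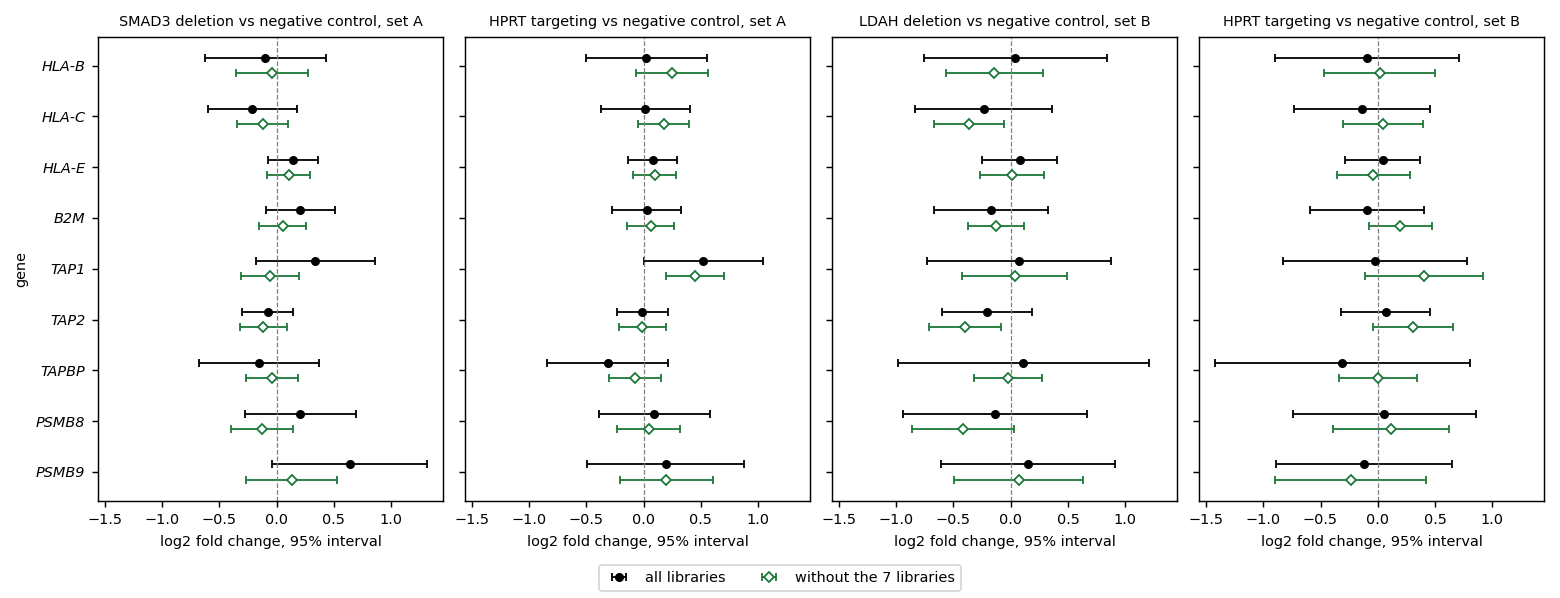
Log2 fold change of each gene against the negative control of its set, with its 95% interval, with all libraries (black circles) and without the 7 libraries that stand apart (green diamonds). Intervals are narrower without them, and TAP1 in HPRT-targeted cells of set A is the one gene whose interval lies above 0 with all libraries.

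Taken over the 9 genes, 5 were higher and 4 lower in the SMAD3 deletion, and their median log2 fold change was 0.14, against 0.001 over all genes. For the LDAH deletion 5 were higher and 4 lower as well, with a median of 0.04, against 0.01 over all genes. For HPRT targeting 7 were higher and 2 lower in set A, and 3 were higher and 6 lower in set B. Without the libraries that stand apart, 3 were higher and 6 lower in each deletion, with medians of -0.04 (SMAD3) and -0.13 (LDAH), and 7 were higher and 2 lower for HPRT targeting in each set. Deletions set against HPRT-targeted cells of the same set gave no call either, with 669 genes (5.83%) at an unadjusted p under 0.05 in set A and 497 (4.22%) in set B, none of them one of the 9. DESeq2 called 17 genes and voom 5 for the SMAD3 deletion against HPRT targeting, again none of the 9. Without the libraries that stand apart, TAP1 was at -0.50 ± 0.13 in the SMAD3 deletion against HPRT targeting (adjusted p = 0.0747) and TAP2 at -0.71 ± 0.18 in the LDAH deletion against HPRT targeting (adjusted p = 0.0856). All values of HPRT-targeted cells of set B in the fits without those libraries rest on 2 libraries. The LDAH effect minus the SMAD3 effect gave adjusted p-values of 1.00 for all 9, with 3.64% of all genes at an unadjusted p under 0.05, and the largest of these differences in size was PSMB9, at -0.49 ± 0.52.

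Other genes of the pathway gave no call in the same test. Of 25 further class I pathway genes tested (chaperones, peptidases, proteasome activators, transcription factors and other heavy chains), 13 were higher and 12 lower in the SMAD3 deletion, with none called. Those with an unadjusted p under 0.05 were PSME1, a proteasome activator subunit, at a log2 fold change of 0.41 ± 0.12, and HLA-F, a non-classical heavy chain, at 0.77 ± 0.35. HLA-F had few reads, with a mean of 2.998 CPM over all libraries and 3 libraries at 0. In the LDAH deletion 20 were higher and 5 lower, with none at an unadjusted p under 0.05. Over both sets of HPRT-targeted cells, NLRC5, the class I transactivator, was at -0.92 ± 0.40 and RFX5, an RFX complex subunit, at -0.62 ± 0.28, both with an adjusted p of 0.938 in the edgeR test. NLRC5 had few reads too, with a mean of 6.12 CPM over all libraries and 1 library at 0. Between the libraries that stand apart and the others, NLRC5 differed by -1.32 in set A and -1.47 in set B on the log2 scale. RFX5 differed by -0.12 and -0.38.

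With all libraries, interferon-stimulated genes gave no call against a negative control. Of the type I interferon-stimulated genes tested, 18 of 22 were higher in the SMAD3 deletion (median log2 fold change 0.22) and 18 of 23 in the LDAH deletion (median 0.31). ISG15, a ubiquitin-like interferon product, was at 0.75 ± 0.30 in the SMAD3 deletion and 0.85 ± 0.39 in the LDAH deletion, IFIT5 at 0.58 ± 0.23 and TRIM22 at 0.67 ± 0.28 in the SMAD3 deletion, and IFI6 at 0.79 ± 0.29 in the LDAH deletion. Interferon-gamma-induced genes were higher in 6 of 8 tested for the SMAD3 deletion and 8 of 9 for the LDAH deletion. LAP3, a leucine aminopeptidase, was at 0.33 ± 0.14 in the SMAD3 deletion and SOCS1, an inhibitor of cytokine signalling, at -2.58 ± 1.02 in the LDAH deletion. SOCS1 had few reads, with a mean of 1.68 CPM over all libraries and 3 libraries at 0, so its fold change is uncertain. Constitutive proteasome genes were higher in 10 of 14 for the SMAD3 deletion and lower in 12 of 14 for the LDAH deletion, where PSMA1 was at -0.59 ± 0.24. Of 12 NK ligand and class I-like genes, 7 were higher in the SMAD3 deletion and 5 in the LDAH deletion, where ULBP2, an NKG2D ligand, was at -1.36 ± 0.48. None of the genes named here passed the adjustment.

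Without the libraries that stand apart, the type I interferon-stimulated genes were higher in 17 of 22 for the SMAD3 deletion (median 0.11) and 14 of 23 for the LDAH deletion (median 0.11), and the interferon-gamma-induced genes in 6 of 8 and 7 of 9. The further class I pathway genes were higher in 14 of 25 and 16 of 25. Of the type I interferon-stimulated genes, 0 were higher at an unadjusted p under 0.05 in either deletion, and 3 were lower in the LDAH deletion. Over all genes, edgeR gave such a p to 1231 of 11574 for the SMAD3 deletion and 1554 of 12153 for the LDAH deletion. The constitutive proteasome genes were lower in 13 of 14 for the SMAD3 deletion, a turn from the count with all libraries, and in 10 of 14 for the LDAH deletion. In that fit of the LDAH deletion 212 of 12153 genes (1.74%) were called, among them PSMA1 and PSMB3 of the constitutive proteasome, ULBP2 of the NK ligands and EGFL7 and CDH5 of the endothelial markers.

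With all libraries, cell type markers gave no call against a negative control either. The endothelial list had 5 of 12 genes higher in the SMAD3 deletion and 8 of 12 in the LDAH deletion, where EGFL7, a protein secreted by endothelial cells, was at 0.78 ± 0.21 (adjusted p = 0.693 in the edgeR test). HLA-DPB1, a class II chain, was at -0.57 ± 0.18 in the SMAD3 deletion. ACTA2, a smooth muscle actin, was at 0.44 ± 0.18 in HPRT-targeted cells of set A and 0.61 ± 0.28 in the LDAH deletion. In HPRT-targeted cells of set B, IFI6 was at 0.72 ± 0.29, GBP1, an interferon-induced GTPase, at -0.47 ± 0.20 and EGFL7 at 0.50 ± 0.21. Over both sets of HPRT-targeted cells, ISG15 was at 0.59 ± 0.21, USP18, which removes ISG15 from proteins, at 0.31 ± 0.14, IFI27 at 0.26 ± 0.12 and ACTA2 at 0.42 ± 0.18.

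Between the libraries that stand apart and the others, the 9 genes did not move in 1 direction. TAP1 was at 59.5 and 77.6 CPM in the 2 such libraries of set A, where the other 10 were at 29.4 to 51.1 CPM. The 5 such libraries of set B were at 44.1 to 91.5 CPM, where the other 10 were at 24.9 to 49.1 CPM. PSMB8 was at 61.6 and 97.5 CPM in set A, against 41.5 to 58.8 CPM, and at 45.0 to 92.7 CPM in set B, against at most 54.5 CPM. The mean log2 CPM was thus higher by 0.81 in set A and 0.94 in set B for TAP1, by 0.61 and 0.99 for PSMB8 and by 0.79 and 0.86 for PSMB9. B2M was higher by 0.21 and 0.37.

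TAPBP moved the other way, at 24.8 and 43.3 CPM in set A, against 56.1 to 73.95 CPM, and at 15.9 to 30.2 CPM in set B, against 73.5 to 100.2 CPM, with log2 differences of -0.97 and -2.02. Of all genes, 9.31% in set A and 5.96% in set B had a lower difference than TAPBP. HLA-B, at -0.67 and -0.46, and HLA-C, at -0.59 and -0.53, were lower as well, while HLA-E and TAP2 differed by 0.04 to 0.17. The transporter subunits therefore went apart, TAP1 higher and TAP2 near its level in the other libraries. Without TMM scaling each of these differences had the same direction. Ranges did not overlap for 5 of the 9 in set A and for 1 of the 9, TAPBP, in set B, against 28.9% and 19.0% of all genes. Over all genes the median difference was -0.01 for set A and -0.07 for set B. The libraries were picked by their correlation with the others over all genes, which included these 9, so the differences are a description with no test.

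Along with them, 14 of 14 constitutive proteasome genes were higher in these libraries in both sets, with median log2 differences of 0.37 and 0.66. The type I interferon-stimulated genes were higher in 18 of 24 in set A and 16 of 24 in set B, and the interferon-gamma-induced genes in 2 of 9 and 0 of 9. NK ligand and class I-like genes were lower in 9 of 12 in both sets, and endothelial markers in 10 of 12 and 11 of 12. The summed endothelial markers were at 1427 to 1589 CPM in the 2 libraries of set A, against 1906 to 2167 CPM in the others, and at 1161 to 1373 CPM in the 5 of set B, against 1908 to 2361 CPM. The summed class II and leukocyte markers were at 18.1 to 21.6 CPM in set A, against 15.2 to 26.7 CPM, and at 13.9 to 29.5 CPM in set B, against 15.2 to 25.0 CPM. In such bulk samples, fewer cells of a type and less RNA per cell cannot be told apart. The part that these markers and the ribosomal protein share have in the differences of the 9 genes was not tested.

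**Figure D3:**
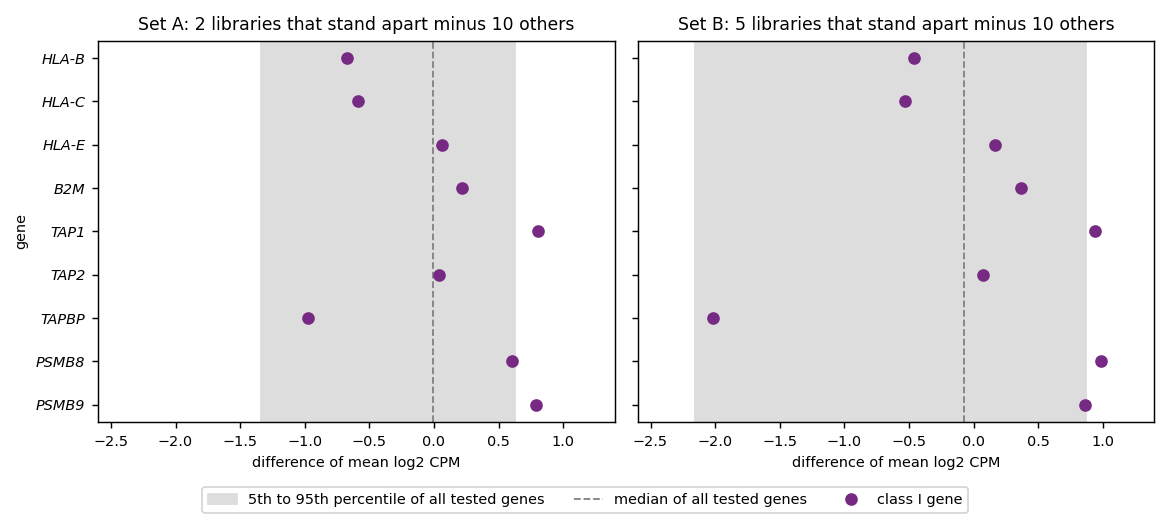
Difference in mean log2 CPM between the libraries that stand apart and the other libraries of each set, for each gene (points), beside the median (dashed line) and the 5th to 95th percentile (grey band) of all 12055 genes tested. TAP1 and PSMB9 in set A and TAP1 and PSMB8 in set B lie above the band, while TAPBP, at -0.97 and -2.02, lies inside the band in both sets.

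Among the 20 other libraries, deviations from the group means were compared for the 36 pairs of the 9 genes, and 6 pairs had an adjusted permutation p under 0.05, all with a positive r. HLA-B went with PSMB9 (Pearson's r = 0.85, Spearman's rho = 0.87, adjusted permutation p = 0.0106 and 0.0072), with r = 0.80 without the 2 libraries farthest from the median of HLA-B. Within sets, this r was 0.76 over the 10 libraries of set A and 0.88 over the 10 of set B. HLA-B also went with HLA-E (r = 0.81, rho = 0.74, adjusted permutation p = 0.00792 and 0.034), with r = 0.87 without the farthest 2 and 0.76 and 0.83 within sets A and B. The unadjusted permutation p was 0.00059 for the first pair and 0.00022 for the second.

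HLA-B with TAP1 had r = 0.67 and rho = 0.70, HLA-C with B2M r = 0.73 and rho = 0.71, and HLA-C with PSMB9 r = 0.76 and rho = 0.68. HLA-E with PSMB9 had r = 0.73 and rho = 0.56, and its r was 0.41 without the farthest 2 libraries, so that it rested on them. All 4 had an adjusted permutation p of 0.0328 for r and of 0.0508 to 0.0675 for rho, at unadjusted p-values of 0.00493 to 0.00546 for r. Their r without the farthest 2 was 0.62, 0.64 and 0.60 for the first 3. Within set A the 4 had r of 0.52, 0.59, 0.45 and 0.44, and within set B 0.72, 0.79, 0.89 and 0.82. TAP1 and PSMB9, which start near each other, were not among the 6 pairs.

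The permutations take the libraries of a group as exchangeable, and these may not be. Among the same 20 libraries, the one with the lowest number in its title was the highest of its group for HLA-B and HLA-E in 6 of 6 groups and for PSMB9 in 5 of 6. What these numbers stand for is not given. Without that library of each group, over 14 libraries, r was 0.58 for HLA-B with HLA-E and 0.30 for HLA-E with PSMB9, and 0.72 for HLA-B with PSMB9. It was 0.82 for HLA-B with TAP1, 0.80 for HLA-C with B2M and 0.70 for HLA-C with PSMB9. All libraries also share the line and the scaling, which such values reflect too.

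By the mean of the 9 genes' standardised deviations, the 10 other genes ranked most like them over the 27 libraries were TST, RGS3, PRSS23, RGS16, PCAT19, LTA4H, BTG2, IFI27, ATP5F1E and CYTH2, out of 8456 genes with a mean of at least 10 CPM. Over the 20 libraries that do not stand apart, their r with that mean lay between 0.51 (ATP5F1E) and 0.83 (RGS3). IFI27, an interferon-stimulated gene, was at 0.76. The mean does not stand for all 9 genes alike, since over the 27 libraries TAPBP had r = -0.18 with it and HLA-C 0.49, while the other 7 lay between 0.65 and 0.83, each gene being part of the mean.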

How the data were processed

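Libraries were made with QuantSeq 3' mRNA-seq FWD and read for 86 cycles, per the labels' protocols. The authors deposited a matrix of whole-number counts for 14008 genes in 27 libraries, and 0 columns were left unused. The genome build hg38 and edgeR 3.24.3 are named in the submitters' processing notes. Which aligner and counting program were used is not given in the sources used here. Symbols were matched to Ensembl IDs for 13949 genes by the current table and for 57 by GENCODE 29.

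Counts were tested with edgeR 4.0.16 in R 4.3.3 (TMM, filterByExpr, quasi-likelihood F test, two-sided, Benjamini-Hochberg over all genes). Set A was fitted over 12 libraries and 11467 genes, set B over 15 and 11769. The 19 control libraries of both sets were fitted with set as covariate (11836 genes), and differences between effects or sets over all 27 (12055). CPM were scaled by TMM over all libraries. An SE is the log2 fold change's size over the square root of F. Total counts were 3.43 to 7.75 M, so that 3 counts are at most 0.875 CPM. Reads carry no molecular identifiers, and this limit covers counting error only. Correlations used log2 CPM with a prior count of 2, and 100000 permutations within groups. Scripts were tested on simulated data.

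Alternatives were DESeq2 1.42.0, limma 3.58.1 voom with quality weights, DESeq2 size factors, no filter, a mean of at least 10 CPM, only the compared groups, leaving out each library, and, chosen after seeing the data, omitting the 7 libraries that stand apart (those with a median correlation with the rest of the set more than 3 scaled median absolute deviations under that set's median) and a replicate block of neighbouring title numbers for HPRT targeting. The members and gene lists were chosen with earlier results of these data known. Beyond the 9 genes, the text names up to 3 genes per list and comparison with the smallest p under 0.05, and the 10 genes most like the members' mean.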

Additional observations from a re-analysis of the deposited data

Results flagged for a closer look

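Within groups of 4 to 7 libraries, 3 of 54 combinations of gene and group had a library far from the rest by Dixon's criterion, where chance alone gives about 1 in 20. PSMB9 stood at 40.8 CPM in SMAD3 deletion replicate 4, against 12.3 to 16.7 CPM in the other 3. It stood at 46.5 CPM in LDAH deletion replicate 4, against 17.5 to 22.3 CPM in the other 3. B2M stood at 2093 CPM in negative control replicate 7 of set B, against 818.5 to 1155 CPM in the other 6. All 3 libraries are among the 7 that stand apart over all genes.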

How the results depend on the processing

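Of the members' fold changes, 130 of 1629 changed sign when 1 library was left out, 29 of 90 without the 7 libraries that stand apart and 27 of 522 under the other alternatives; most were near 0. Only sign changes of a called value or by more than 1 SE are given here, and only for comparisons against or between negative controls. Such changes in the other comparisons are not listed. For the SMAD3 deletion, TAP1 became -0.040 and PSMB8 -0.094 with voom, and -0.056 and -0.13 without the 7 libraries, and single libraries left out gave -0.0405 to 0.50 and -0.12 to 0.35. For the LDAH deletion this range was -0.45 to 0.28 for TAP1 and -0.25 to 0.37 for PSMB9. For HPRT targeting, B2M became 0.16 in set B and 0.11 in both sets with voom, and 0.20 and 0.12 without the 7, where TAP1 became 0.40 in set B. Between negative controls, TAP1 became -0.12 with voom, and without the 7 B2M became -0.20, TAP1 -0.14 and TAPBP 0.34. B2M ranged from -0.18 to 0.13 and TAP2 from -0.55 to -0.44 when 1 library was left out.

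Counts of called genes, against 0, were 3 (SMAD3 deletion), 1 (HPRT, set A), 17 (SMAD3 deletion against HPRT), 14 (LDAH deletion), 1 (HPRT, both sets), 2 (difference of HPRT effects) and 4 (difference of deletion effects) with DESeq2. With voom they were 2, 5 and 6 for the SMAD3 deletion, the SMAD3 deletion against HPRT and HPRT in both sets, and 1 for the difference of deletion effects. Without the 7 libraries they were 1 (SMAD3 deletion), 1 (HPRT, set A), 55 (SMAD3 deletion against HPRT), 212 (LDAH deletion), 77 (LDAH deletion against HPRT), 1 (HPRT, both sets), 1 (difference of HPRT effects) and 68 (difference of deletion effects), with none of the 9 genes among them. Leaving out 1 library gave 0 to 2 for the SMAD3 deletion against HPRT (2 without HPRT-targeted replicate 3), 0 to 3 for the LDAH deletion and 0 to 4 for the difference of deletion effects (both without LDAH deletion replicate 4), and 0 to 1 for that of HPRT effects (without HPRT-targeted replicate 3 of set A). Between negative controls, against 1157, voom called 3639 and the fit without the 7 libraries 3482, with 2 of the 9 genes. Leaving out 1 library gave 693 to 1328 there, and 0 to 1 of the 9: TAP2 was lost without negative control replicates 1 or 4 of set A, or 2 or 3 of set B. The cause was not tested. Replicate numbers used here count the libraries within each group and do not pair libraries across groups. No title number is shared between groups. In set A the title numbers alternate between HPRT targeting and its control, and in set B they do so up to number 60. Deviations of libraries with neighbouring numbers correlated at -0.082 to 0.14 over the 4 pairs of set A. Over 3 pairs of set B they correlated at 0.32, -0.18 and 0.42, the lowest with HPRT-targeted replicate 2, which stands apart. The numbers were not taken as pairing libraries in the main tests, though these values did not settle this for set B. With these pairs as a replicate block, chosen after seeing the data, edgeR called 0 genes in either set, with 604 genes in set A and 133 in set B at an unadjusted p under 0.05, and TAP1 became 0.56 in set B (adjusted p = 0.944). Precision was limited more by the spread between libraries in set B (common dispersion 0.195) than in set A (0.0434).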
